A study of Homo sapiens with 12 samples.

Results

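The long arm of chromosome 20, 20q, was described through the regions where acetylation of lysine 27 on histone H3 (H3K27ac) was called in 5 human cancer cell lines. Peaks of the 8 lists from untreated cells were merged where they overlapped by at least 1 bp, which gave 70648 regions. Of these, 1068 lay on chromosome 20 between 29500000 and 63025520 in hg19, without the stretch from 48700000 to 50000000, which holds CEBPB and PARD6B and was left out with its 92 regions. They made up 1.51% of all regions. No measured value chose them.

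The lists came from H358 and H2009, lung adenocarcinoma lines with 2 libraries each, from HCC95, a squamous lung carcinoma line with 1 library, from Ishikawa, an endometrial carcinoma line with 2 libraries, and from BICR31 with 1 library. The design text calls BICR31 a head and neck squamous line, while its sample label gives Lung adenocarcinomas. All lines were grown in RPMI with serum, were recorded as untreated and were precipitated with 1 antibody against H3K27ac. A side comparison uses 4 more libraries of H2009 (Empty, Control, e3KRAB1, e3KRAB2), each a single library that the labels also record as untreated. The labels do not say whether replicates came from separate cultures, so a p-value sets lines against the spread of these libraries only, and that spread may be technical. A line with 1 library has no replicate error at all.

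The lists held 23400 to 42148 peaks, and BICR31 had the longest. Their form moved with the line: H358 and H2009 lists were narrowPeak, HCC95 and BICR31 lists broadPeak, and Ishikawa lists had a 5-column form with wider peaks. Median peak width on 20q was 371 to 407 bases in the narrowPeak lists, 877 to 949 in the broadPeak lists and 1032 to 1597 in Ishikawa. Lists give no read numbers, so sequencing depth is unknown. Promoters of 3 genes that mark squamous cells (TP63, KRT5 and KRT6A) had a peak within 5 kb in 3 of 3 cases in both HCC95 and BICR31 and in 0 of 3 in all 4 H358 and H2009 libraries. Ishikawa replicate 1 had 1 of 3, KRT5, and Ishikawa replicate 2 had 0. Of 3 lung adenocarcinoma markers, SFTPB had no peak in any library, and NKX2-1 had one in both H358 libraries and BICR31 but in neither H2009 library. The third, NAPSA, had a peak in all libraries except HCC95. Of 3 endometrial markers, Ishikawa replicate 1 had 0, Ishikawa replicate 2 had 2 and BICR31 had 3. HCC95 had 1, MSX1, and H2009 replicate 1 had 1, ESR1, so this set did not single out Ishikawa.

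H3K27ac is laid down by the acetyltransferases p300 and CBP and marks active promoters and active enhancers. Chromosome arm 20q is often gained in epithelial cancers, and it carries growth and mitosis genes such as AURKA, TPX2, E2F1 and NCOA3. Promoters of genes that every cell needs usually carry the mark in all cell types, while enhancers carry it in a pattern that differs between cell types.

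The promoter sequences of 5 genes show the contrast between a start that was marked everywhere and starts that separated the lines. They are RefSeq promoters of GRCh38.p14, 250 bases before to 50 after the gene's start, written 5′ to 3′ along the gene's strand. Capitals mark matches to 4 motifs, searched on both strands. The GC box was read as GGGCGG and the CCAAT box by the letters of its name. The TATA box was read as TATAAA, and the site of the factor AP-1 as TGANTCA. No 2 of these matches overlapped. YWHAB, on the plus strand at chr20:44885455-44885754, had a peak at its start in all 8 libraries. WFDC2 (plus strand, chr20:45469503-45469802) lacked one only in HCC95. TSHZ2 (plus strand, chr20:52972108-52972407) had one in 5 of 8 libraries, NFATC2 (minus strand, chr20:51562790-51563089) only in HCC95 and BICR31, and PREX1 (minus strand, chr20:48827950-48828249) only in HCC95 and Ishikawa. These genes were picked after their values were seen, from the 35 of 64 listed genes that have an entry in the promoter table.
YWHAB: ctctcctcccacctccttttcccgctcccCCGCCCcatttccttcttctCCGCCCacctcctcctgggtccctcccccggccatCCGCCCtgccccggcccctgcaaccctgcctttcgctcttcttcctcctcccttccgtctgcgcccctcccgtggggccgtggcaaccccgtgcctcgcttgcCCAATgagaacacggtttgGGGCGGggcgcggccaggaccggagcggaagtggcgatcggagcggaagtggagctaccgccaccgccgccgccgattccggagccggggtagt
WFDC2: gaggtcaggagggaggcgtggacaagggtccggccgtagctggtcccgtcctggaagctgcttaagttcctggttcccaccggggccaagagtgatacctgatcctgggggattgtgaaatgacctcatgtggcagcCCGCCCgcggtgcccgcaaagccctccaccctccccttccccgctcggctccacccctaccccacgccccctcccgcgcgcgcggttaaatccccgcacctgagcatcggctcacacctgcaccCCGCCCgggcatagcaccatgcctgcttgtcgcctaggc
TSHZ2: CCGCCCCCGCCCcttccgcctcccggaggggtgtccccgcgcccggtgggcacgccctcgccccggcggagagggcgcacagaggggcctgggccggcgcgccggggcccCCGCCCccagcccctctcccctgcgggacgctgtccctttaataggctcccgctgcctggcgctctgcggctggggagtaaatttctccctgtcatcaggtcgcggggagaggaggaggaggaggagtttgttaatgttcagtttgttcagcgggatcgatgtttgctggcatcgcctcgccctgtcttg
NFATC2: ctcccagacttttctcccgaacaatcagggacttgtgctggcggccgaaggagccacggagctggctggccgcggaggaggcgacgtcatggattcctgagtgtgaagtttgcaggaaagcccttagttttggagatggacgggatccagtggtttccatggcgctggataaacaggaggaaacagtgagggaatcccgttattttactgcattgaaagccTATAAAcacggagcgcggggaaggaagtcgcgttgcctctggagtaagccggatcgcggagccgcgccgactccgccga
PREX1: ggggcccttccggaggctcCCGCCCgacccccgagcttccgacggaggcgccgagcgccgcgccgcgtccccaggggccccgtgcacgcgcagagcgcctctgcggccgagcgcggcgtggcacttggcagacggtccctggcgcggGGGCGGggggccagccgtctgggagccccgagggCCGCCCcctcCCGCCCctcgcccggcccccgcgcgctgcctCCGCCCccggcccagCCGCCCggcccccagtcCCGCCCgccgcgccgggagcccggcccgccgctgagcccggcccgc

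The GC box was present 4 times in the YWHAB promoter, 2 times in WFDC2, 3 times in TSHZ2 and 7 times in PREX1, and 0 times in NFATC2. Over 35097 promoters of the same length, 44.9% held a GC box. A TATA box stood in the NFATC2 promoter alone of the 5, against 11.5% of all promoters, and a CCAAT box in YWHAB alone, against 34.6%. None of the 5 held the AP-1 letters, which 7.71% of promoters held. CpG pairs numbered 29 in YWHAB, 22 in WFDC2, 28 in TSHZ2, 24 in NFATC2 and 49 in PREX1, against a median of 14 over all promoters. All 5 were thus above that median, whether the start was marked in every line or in a few.

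Peaks were denser on 20q than on the short arm, 20p, in all 8 libraries. H358 had 13.3 and 13.4 peaks per Mb on 20q against 11.0 and 11.8 on 20p. H2009 had 13.3 and 12.6 on 20q against 6.92 and 6.19 on 20p. HCC95 had 12.7 on 20q against 10.3 on 20p. On 20q H358, H2009 and HCC95 therefore lay close together, and on 20p H2009 stood lowest. Ishikawa had 10.4 and 11.4 peaks per Mb on 20q against 8.06 and 8.55 on 20p. BICR31 had 23.7 against 14.9. Merged over libraries, 20q held 33.1 regions per Mb and 20p 26.03.

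**Figure D1:**
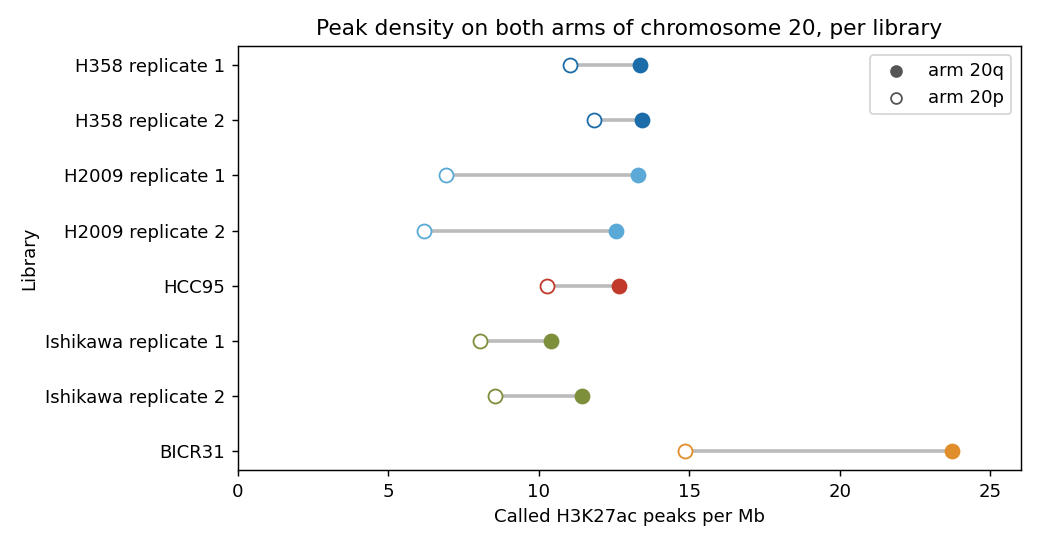
Called H3K27ac peaks per Mb (x axis) on 20q (filled points) and 20p (open points) in each of the 8 untreated libraries (y axis), coloured by line. The 20q point lies to the right of the 20p point in every library, and the distance is widest in BICR31 and in both H2009 libraries.

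The ratio of peak density on 20q to that on 20p was 1.21 and 1.14 in the H358 libraries and 1.92 and 2.03 in the H2009 libraries. HCC95 had a ratio of 1.23, the Ishikawa libraries 1.29 and 1.34, and BICR31 1.60. Replicates were close and the H2009 libraries lay above all others. The mean of the 5 lines' log2 ratios was 0.52, with p = 0.0625 in the exact two-sided sign-flip permutation test over lines, the smallest value that 5 lines allow, so 0.05 could not be reached. A comparison added after the values were seen asked whether lines differed more than replicates: log2 ratios differed by 0.40 on average between lines and by 0.07 between replicates (exact one-sided permutation test over 420 placements of the replicate pairs, p = 0.00476). Within the narrowPeak form, the 4 differences between an H358 and an H2009 library ran from 0.67 to 0.84 on the log2 scale. HCC95 and BICR31, both broadPeak, differed by 0.37. Called bases in place of peaks gave ratios of 1.17 and 1.16 in H358 and 2.10 and 2.12 in H2009.

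Counted by gene, the order of the arms turned for regions merged over the 8 libraries. Peaks of single libraries were not counted by gene. By the order of genes in the RefSeq table, 357 protein-coding genes lie on 20q and 180 on 20p. With the left-out stretch put back, 20q had 3.25 merged regions per protein-coding gene and 20p had 3.81.

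The share of a list that lay on 20q was 1.60% and 1.61% for the H358 libraries and 1.59% and 1.53% for the H2009 libraries. For Ishikawa it was 1.37% and 1.35%, for HCC95 1.74% and for BICR31 1.81%. Both Ishikawa libraries were lowest and both squamous lists highest, with no overlap of these values. The 95% Wilson intervals of HCC95 (1.58 to 1.92%), Ishikawa replicate 1 (1.24 to 1.53%) and Ishikawa replicate 2 (1.22 to 1.49%) each overlapped those of the H358 and H2009 libraries. That of BICR31 (1.690 to 1.944%) overlapped those of both H358 libraries and H2009 replicate 1. It only just missed that of H2009 replicate 2, which ended at 1.689%. Per Mb, 20q took place 3 among 24 chromosomes and chromosome 20 arms in H358, H2009, HCC95 and BICR31, and place 5 in Ishikawa. The length of each other chromosome ran to the end of its last region, stretches without sequence included. These places thus compare unlike lengths and are rough. Log2 shares differed by 0.19 on average between lines and by 0.03 between replicates (exact one-sided permutation test, p = 0.00238, the smallest that 420 placements allow). The lines that differed most also had lists of different forms: within the narrowPeak form the H358 and H2009 shares differed by 0.04 on average, and within the broadPeak form the shares of HCC95 and BICR31 differed by 0.06. Line and form cannot be told apart here. In the higher-ranked 50% of each list the Ishikawa shares were 1.56% and 1.55%, those of H358 1.59% and 1.77% and those of H2009 1.56% and 1.53%. Ishikawa was thus not lowest there, and the same exact permutation test gave p = 0.138.

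Regions shared by every library were more frequent on 20q than on 20p. A peak in all 8 libraries, called core here, was found in 167 of 1068 regions of 20q, 15.6% (95% Wilson interval 13.6 to 17.9%), in 68 of 685 on 20p, 9.93% (7.91 to 12.4%), and in 12.1% of all regions. Intervals cover counting error over regions only. Regions with a peak in 1 library alone made up 48.9% on 20q, 49.2% on 20p and 47.7% on the other chromosomes. Core regions of 20q had a median width of 2056 bases and regions of 1 library 511. Neighbouring regions on 20q were separated by a median of 12.6 kb, against 16.5 kb on 20p.

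Core peaks ranked high within their lists. A peak's rank is the percentile of its fold enrichment, or of its deposited score in Ishikawa, within its own list, with 100 as the highest. On 20q the median rank of peaks in core regions was 83.2 in BICR31, 76.5 in HCC95, 75.6 and 74.3 in Ishikawa, 71.5 and 71.3 in H358 and 61.5 and 61.2 in H2009. Peaks in line-specific regions, those with a peak in every library of 1 line and in none of another, had medians of 36.2 in BICR31, 26.9 in HCC95, 31.9 and 41.2 in Ishikawa, 11.3 and 43.7 in H358 and 29.1 and 48.701 in H2009. Width and rank did not go together among the widest core regions. The widest, 45944066 to 45951380 (7315 bases), ranked 36.7 and 51.5 in Ishikawa, against 2.64 in HCC95, 0.354 in BICR31, 1.46 and 0.130 in H358 and 0.0521 and 0.0530 in H2009. It was thus near the bottom of the 6 lists other than Ishikawa's although no library lacked it. The region at 30791318 to 30796704 (5387 bases) ranked from 46.0 in Ishikawa replicate 1 to 93.7 in H2009 replicate 1. Those over the starts of ADRM1, a proteasome receptor, BCL2L1, an inhibitor of apoptosis, and PRPF6, a spliceosome component, were 6306, 5679 and 4022 bases wide.

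The line-specific share on 20q ran from 2.69% in H2009 to 41.7% in BICR31. Such regions numbered 11 of the 274 regions of H358 (4.01%), where 5.78% of this line's regions were specific over the whole genome. H2009 had 7 of 260, 2.69% (95% Wilson interval 1.31 to 5.45%), against 5.68% over the genome, and HCC95 had 77 of 404 (19.1%, against 18.8%). Ishikawa had 33 of 281, 11.7% (8.49 to 16.0%), against 18.1% over the genome. BICR31 had 318 of 762 (interval 38.3 to 45.3%), against 37.0%. H2009 and Ishikawa thus lay below and BICR31 above their shares over the genome by more than the counting interval, while the intervals of H358 and HCC95 held theirs. On 20p the shares were 34.1% in BICR31, 21.1% in HCC95, 15.5% in Ishikawa and 10.5% in H358, and H2009 had 5 of 100.

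**Figure D2:**
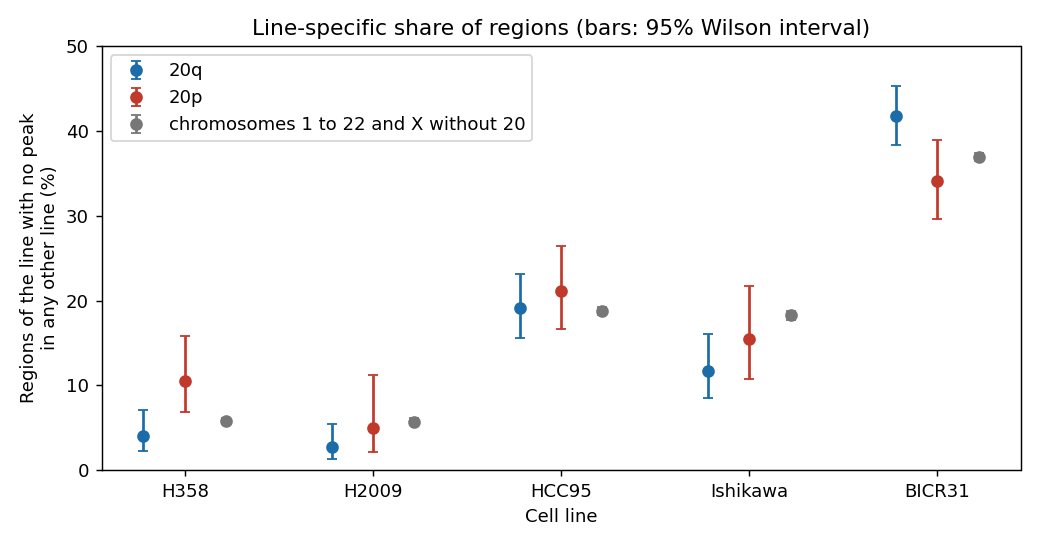
Share of each line's regions with no peak in any other line (y axis, percent) for the 5 lines (x axis) on 20q, on 20p and on the other chromosomes, with 95% Wilson intervals. BICR31 is the only line whose 20q point, 41.7%, lies above its 20p point, 34.1%.

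Over the 5 lines the share on 20q minus that on 20p averaged -1.39 percentage points (exact two-sided sign-flip permutation test, p = 0.5625), and against the other chromosomes -1.24 points (p = 0.5625 in the same exact test). The smallest p that 5 lines allow is 0.0625. All lines but BICR31 were lower on 20q than on 20p. Without BICR31 the mean difference from 20p was -4.29 points. Counts of specific regions rest on the number of libraries and on the longest list: with lists cut to the length of the shortest, BICR31 had 126 specific regions on 20q and HCC95 119. Without BICR31, H358 had 25, H2009 20 and HCC95 132. With 1 replicate left out, H358 had 32 or 38, H2009 27 or 36 and Ishikawa 54 or 56.

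Pairs of lines also shared regions that no other line had. Every library of both lines needed a peak, so the rule was stricter for lines with 2 libraries, and counts of different pairs are not alike. HCC95 and BICR31, the lines with a peak at all 3 squamous markers and a shared file form, shared 48 (4.49% of 20q regions, against 3.56% of all regions). H358 and BICR31 shared 14 (1.31%, against 0.555%), H2009 and BICR31 11 (1.03%, against 0.822%), and Ishikawa and BICR31 10 (0.936%, against 1.07%). HCC95 and Ishikawa shared 9 (0.843%, against 0.45%). The adenocarcinoma lines H358 and H2009, with 2 libraries each, shared 4 of this kind (0.375%, against 0.497%). The largest count thus fell to the squamous pair, the only pair with 1 library per line, with a share near its background. Counts of 4 to 14 carry wide counting error. The widest region of the squamous pair lay at 46107788 to 46110771 (2984 bases) and ranked 4.07 in HCC95 and 1.62 in BICR31. That of HCC95 and Ishikawa lay at 50815950 to 50819196 (3247 bases), with ranks of 51.1 in HCC95 and 70.2 and 86.4 in Ishikawa. That of Ishikawa and BICR31, at 35110139 to 35113378 (3240 bases), ranked 40.2 and 24.2 in Ishikawa and 62.0 in BICR31.

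The bases covered by peaks separated lines from replicates. The Jaccard index, bases shared by 2 lists over bases covered by either, was 0.501 on 20q between the H358 libraries, 0.450 between those of H2009 and 0.673 between those of Ishikawa. Between lines it averaged 0.271, from 0.176 to 0.423. Every replicate pair was therefore above every pair of lines. The difference of means was 0.271 (exact one-sided permutation test, p = 0.00238, the smallest that 420 placements allow). H358 and H2009 were the closest lines, with a mean of 0.409 over 4 pairs of libraries on 20q, 0.309 on 20p and 0.351 on the other chromosomes. They share the narrowPeak form, within which their 4 pairs, at 0.423 or lower, lay below both replicate pairs. HCC95 and BICR31, which share the broadPeak form, reached 0.288 on 20q. HCC95 and the 5-column Ishikawa lists had a mean of 0.299 there, with values of 0.283 and 0.315. Away from 20q the order turned. HCC95 and BICR31 had 0.312 on 20p and 0.273 on the other chromosomes, against 0.265 and 0.247 for HCC95 and Ishikawa.

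In the whole lists, ranks of 20q peaks did not move one way. The median rank on 20q minus that on 20p was 0.786 and 9.06 in H358, 11.3 and 6.17 in Ishikawa and 3.21 in HCC95. It was -0.629 and -6.30 in H2009 and -2.45 in BICR31. The mean over lines was 2.19 percentile points (exact two-sided sign-flip permutation test, p = 0.4375). Against the other chromosomes it was 1.89 (p = 0.3125, same exact test). The Ishikawa libraries were highest there, at 7.64 and 7.29 points, where H358 had -0.860 and 5.44. Replicates of H358 differed from each other by more than most lines did.

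The highest peaks of the arm were mostly shared. The highest of HCC95, at 58508819 to 58509235, had a fold enrichment of 8.01 and was place 1 of 23400 in that list. Its merged region ranked 48.2 and 85.2 in H358 and 88.8 and 67.9 in H2009, and held no peak in Ishikawa. Both Ishikawa lists had their highest 20q peak in 1 region, at 29610834 to 29613333, close to the centromere, and it was place 5 in both. That region held a peak in every other library except BICR31. H358 replicate 2 and H2009 replicate 1 shared a region at 30538468 to 30539960 with place 45 of 26954 and place 6 of 26887. The regions with the top peaks of H358 replicate 1 (37075017 to 37076365), H2009 replicate 2 (43103788 to 43105394) and BICR31 (34129424 to 34130764) had a peak in all 8 libraries. No listed gene start was within 100 kb of any of these 6 regions.

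Regions clustered along the arm. Over 31 full windows of 1 Mb the median was 36 regions, from 2 to 65. The window from 52 to 53 Mb had the most, 65, and holds ZNF217, a transcriptional repressor amplified in breast cancer, BCAS1 and CYP24A1, the vitamin D 24-hydroxylase. Only 4.62% of its regions were core. The windows from 62 to 63 Mb and from 30 to 31 Mb followed, with 63 and 52 regions, of which 20.6% and 19.2% were core. In the window from 46 to 47 Mb, 33 of 51 regions were specific to BICR31 (64.7%) and 1 was core. Over the arm 318 of 1068 regions were specific to BICR31, and over the genome 15493 of 70648. The window was named because it held the most such regions. With lists of equal length, 126 BICR31-specific regions were left on the arm, and this window was not counted again. BICR31 had 43 peaks there and the other libraries 5 to 8.

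**Figure D3:**
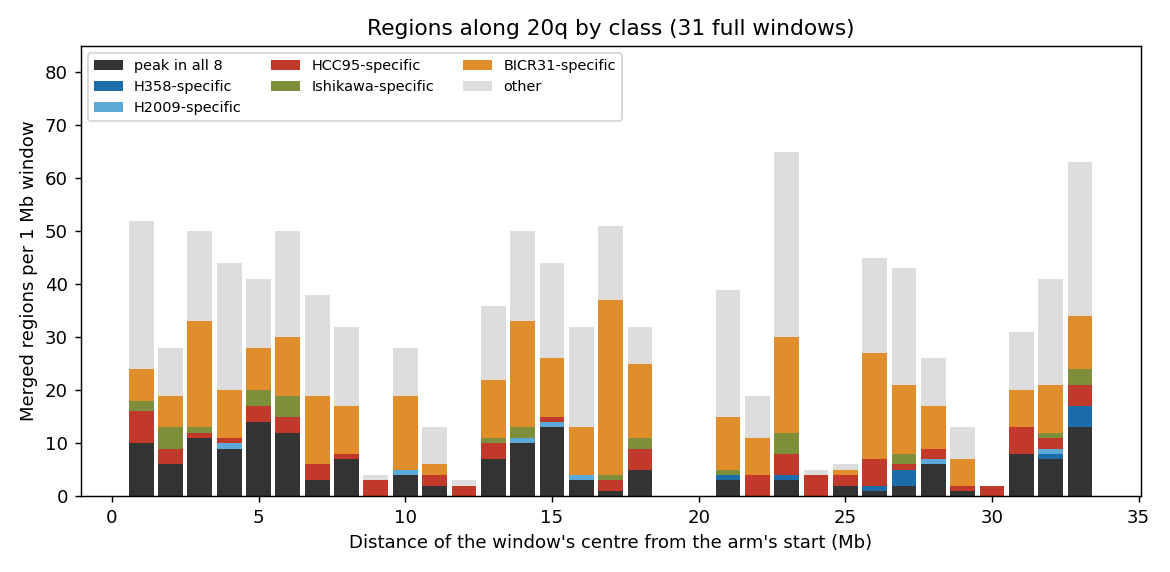
Merged regions per 1 Mb window (y axis) by the distance of the window's centre from the arm's start (x axis, Mb), stacked by class, for 31 full windows. The gap in the middle of the arm holds the left-out stretch, the highest column holds 65 regions, and the column with the largest BICR31-specific part holds 33 of 51.

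Fewer than 10 regions each, 20 in all, lay in the 5 windows that start at 38, 41, 53, 54 and 59 Mb. HCC95 had 19 peaks there, 4.66% of its 20q peaks, and 13 of the 20 regions were specific to HCC95. The other 7 libraries had 2 to 6 peaks there, 0.543 to 1.40% of their 20q peaks. The window from 59 to 60 Mb held 2 regions, and HCC95 alone had peaks in it. The median rank of the HCC95 peaks in these windows was 48.1 and the median width 465 bases, against 877 bases over the arm. One of them, at 54468850 to 54469166, was the highest-ranked HCC95-specific region of the arm, at 93.2. These windows were grouped after their values were seen.

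Dense stretches, in which 5 or more peaks of 1 library followed each other with gaps of at most 12 kb, numbered 14 in BICR31 and 1 to 4 in every other library. BICR31 had 764 peaks on 20q and the others 335 to 433. With lists cut to the length of the shortest, BICR31 had 1 dense stretch and the other libraries 0 to 3, so the stretches named next describe the whole lists. From 46578643 to 46619304, BICR31 had 5 peaks and no other library any. From 55615054 to 55651935 it had 6, again with none elsewhere. From 55770379 to 55805496, downstream of the start of BMP7, a bone morphogenetic protein, BICR31 had 5 and HCC95 had 1. Between 52352554 and 52407996, upstream of ZNF217, BICR31 had 7 peaks and the other libraries 1 to 4. Called bases there were 11735 in BICR31, 11354 and 8897 in Ishikawa, whose peaks were wider, and 271 to 3495 in the other libraries. Around TNFRSF6B, a soluble decoy receptor, from 62313155 to 62339946, peaks were most numerous in H358. Both H358 libraries had 8 peaks there, H2009 5 and 4, BICR31 3 and the others 2. Called bases were 3657 and 3658 in H358, 4078 in BICR31, 3938 and 2931 in Ishikawa and 2074 to 2446 in the others. In called bases H358 thus lay above H2009, which shares its narrowPeak form, and above HCC95. It did not lie above BICR31 or Ishikawa replicate 1, whose peaks were wider.

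The line-specific regions with the greatest width came from Ishikawa, whose peaks were the widest. They lay at 35447496 to 35454675 (7180 bases, ranks 27.4 and 46.0), at 43968507 to 43975627 (7121 bases, ranks 6.09 and 51.6) and at 35439608 to 35444981 (5374 bases, ranks 54.7 and 79.6). The middle one ends 1.5 kb from the start of SDC4, a heparan sulfate proteoglycan. A core region that covers this start begins less than 500 bp beyond that end. The middle region thus counts as line-specific only because regions were merged by an overlap of at least 1 bp. Merging within 500 bp joins it to the core region. The first and the last of the 3 Ishikawa regions are neighbours. In H2009 the region at 57797108 to 57797581 (474 bases) had ranks of 85.5 and 95.5. In H358 the widest, at 55286615 to 55287349 (735 bases), ranked 33.3 and 64.7, and the highest-ranked, at 50634214 to 50634602, ranked 67.8 and 57.6. The highest-ranked BICR31-specific region, at 37418367 to 37418867, stood at 97.8, and the widest, at 48316249 to 48319219 (2971 bases), at 4.39. The widest in HCC95, at 60010939 to 60013178 (2240 bases), ranked 16.9. In H2009 and Ishikawa the highest-ranked specific region was also among the 3 widest of the line, and in H358, HCC95 and BICR31 it was not.

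Genes of 20q were then taken in 7 lists by role, 64 genes in all, and each start was scored for a peak within 2 kb. The starts in hg19 were written from general knowledge, since no hg19 annotation was used here. Only their order along the arm was checked, against RefSeq, and 64 of 64 agreed, so a start with no peak may also be a start placed wrongly or a gene that uses another start. A peak stood at 29 starts in all 8 libraries, at 12 in none and at 23 in some. The listed genes were chosen by role and are no sample of all genes, and the share over all gene starts was not measured. Of 14 growth and cell cycle genes, 13 had one in all 8: among them RAE1, an mRNA export and spindle factor, ranked 80.7 to 99.9, CSE1L, the export receptor of importin alpha, 65.7 to 99.5, and AURKA, a mitotic kinase, 47.7 to 89.9. ZNF217 was the exception, with a peak in Ishikawa replicate 1 (rank 58.7) and BICR31 (3.15) only. All 6 constitutive genes, such as EIF2S2, a translation initiation factor subunit (ranks 78.7 to 99.3), had a peak in all 8. None of the 5 mostly neuronal or germ-line genes (CTCFL, CHRNA4, NTSR1, MC3R and CDH4) had one in any library.

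Of 10 lineage and developmental transcription factors, 2, ID1 and SALL4, had a peak at the start in all 8 libraries, 2 had none in any and 6 differed between libraries. NFATC2, a calcium-responsive factor, ranked 76.0 in HCC95 and 52.5 in BICR31, and EYA2, a transcriptional coactivator, 56.1 and 45.7. Neither had a peak in the other 6 libraries, so both followed the squamous pair and its file form alike. SNAI1, a repressor of E-cadherin, ranked 43.0 and 75.9 in Ishikawa, 41.8 and 61.0 in H358, 55.5 and 49.0 in H2009 and 29.3 in BICR31, and had no peak in HCC95. TSHZ2, a zinc finger factor, ranked 86.5 in HCC95, 82.0 in BICR31, 26.5 and 44.5 in H2009 and 76.3 in H358 replicate 2. It had none in H358 replicate 1 or Ishikawa, so the H358 replicates disagreed. SOX18, a factor of vessel development, had a peak in Ishikawa only (10.8 and 26.5).

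**Figure D4:**
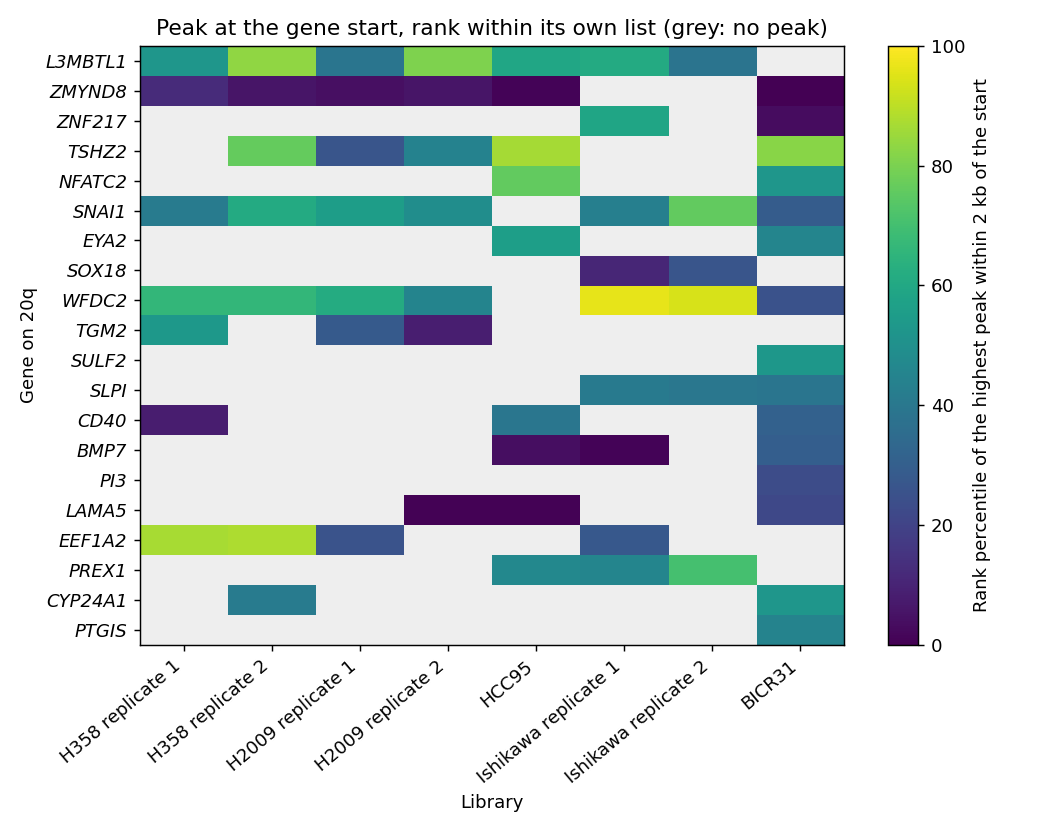
Rank percentile within its own list (colour, 0 to 100) of the highest peak within 2 kb of the start of 20 genes on 20q (y axis) in the 8 untreated libraries (x axis), with grey for no peak. Ranks span the scale, from WFDC2 at 96.4 in Ishikawa replicate 1 to cells with no peak.

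Of 12 secreted, matrix and adhesion genes, 1, SDC4, had a peak in all 8 libraries, 2 had none and 9 differed. WFDC2, a secreted whey acidic protein used as a tumour marker, ranked 96.4 and 94.0 in Ishikawa, 66.2 and 66.2 in H358, 61.4 and 45.0 in H2009 and 25.4 in BICR31, and had no peak in HCC95. It was among the highest 20q starts in Ishikawa and separated the 2 squamous lists. Its neighbours in the same family of protease inhibitors differed from it: SLPI had a peak only in Ishikawa (41.4 and 39.5) and BICR31 (38.8), and PI3, which encodes elafin, only in BICR31 (23.2). SULF2, a heparan sulfate sulfatase, had one only in BICR31 (53.1). TGM2, a transglutaminase, ranked 53.5 in H358 replicate 1, 28.2 and 8.56 in H2009 and had none elsewhere, H358 replicate 2 included. CD40, a TNF receptor family member, had a peak in H358 replicate 1 (7.84), HCC95 (39.2) and BICR31 (30.9). BMP7 and LAMA5, a laminin chain, ranked 29.9 and 21.7 in BICR31 and under 4 in the 2 other libraries that had a peak at each.

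Of 9 signalling and metabolic genes, GNAS, the stimulatory G protein alpha subunit, and PTK6, an epithelial tyrosine kinase, had a peak in all 8 libraries. EEF1A2, a translation elongation factor, was high in H358 (86.8 and 87.8), lower in H2009 replicate 1 (25.7) and Ishikawa replicate 1 (27.6), and absent from the other 4 lists. Replicates of H2009 and of Ishikawa thus disagreed on it. PREX1, a Rac exchange factor, ranked 46.6 in HCC95 and 45.3 and 70.4 in Ishikawa, with no peak in H358, H2009 or BICR31. CYP24A1 had a peak in H358 replicate 2 (41.7) and BICR31 (52.4), and PTGIS, prostacyclin synthase, in BICR31 only (44.7). Of 8 chromatin and splicing regulators, 5 had a peak in all 8 libraries. ZMYND8, a reader of acetylated histones, had one in the 6 libraries other than Ishikawa's, with ranks of 0.384 in BICR31, 1.16 in HCC95, 4.195 and 5.51 in H2009, 5.63 in H358 replicate 2 and 12.49 in H358 replicate 1. L3MBTL1, a polycomb-like protein, had one in 7 (38.7 to 83.6) and none in BICR31, the longest list. A start with no peak in a list is not shown to lack the mark, since depth is unknown.

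In the 4 further H2009 libraries, whose lists held 1375 to 3250 peaks, 20q peaks were few. Empty had 46 (2.35%), Control 65 of 3250, e3KRAB1 43 (1.86%) and e3KRAB2 26 (1.89%), against 1.59% and 1.53% in the H2009 replicates. Their 20q peaks fell in core regions in 84.8, 78.5, 90.7 and 88.5% of cases, against 54.9 and 58.3% in the replicates. The 20q to 20p density ratio was 3.76, 2.41, 3.19 and 3.03, above 1.92 and 2.03, on only 7 to 22 peaks on 20p. With 1 library each there was no test, and their lists are shorter by a wide margin, so list length and label cannot be told apart. The peak names in the list labelled e3KRAB2 carry the tag Ctrl2.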

How the data were processed

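H3K27ac ChIP-seq peak lists of 12 human cancer cell line libraries were used. BWA and the hg19 build are named in the submitters' processing notes. Aligner version, peak caller settings and controls are not given in the labels or files. Each list belongs to 1 sample and was taken as called on it. The authors deposited 8 narrowPeak lists (H358, H2009), 2 broadPeak lists (HCC95, BICR31) and 2 five-column lists (Ishikawa, peak names beginning with MACS). The deposited fold enrichment ratio ranked the peaks of narrowPeak and broadPeak lists, and the deposited score ranked those of Ishikawa. The deposited −log10 p and −log10 q values and the deposited summit offset, an other kind of value, were not used.

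Peaks of the 8 untreated lists on chromosomes 1 to 22 and X were merged (Python 3.11.15, numpy 2.4.6, pandas 2.3.3, scipy 1.17.1), and 531 peaks on other sequences were left out. Densities on 20q used 32.2 Mb; for 20p the length ran to the end of its last region, 26.3 Mb. Ranks are percentiles within a list. Lines were compared with replicates by exact permutation of the replicate pairs (420 placements), and arms by sign flips over 5 lines (32). Merging, classes and the pair test were checked on simulated lists. Members and gene lists were chosen with earlier results of these data known. Regions were named by fixed rules: per line the 3 widest and the highest-ranked specific region, the 5 widest core regions, the widest region of each pair of lines with 5 or more, the top peak of each library, the 3 densest and 3 sparsest windows, and the 20 discriminating gene starts with the widest spread; not every one is printed. Gene starts in hg19 came from general knowledge and were checked for order; their offset from GRCh38.p14 starts was looked at once, and no gene was moved. A few results are not reported here. Over 31 windows the differences between replicates 1 and 2 correlated at r = -0.31 (H358 with H2009), -0.07 (H358 with Ishikawa) and 0.40 (H2009 with Ishikawa). These mixed values cannot tell whether replicate numbers pair libraries. The main tests did not pair them, and a replicate block was run as an alternative. Alternatives were the upper 50% of each list, equal list lengths, a 50% coverage rule, the left-out stretch, called bases, another arm length, ranking by width, merging within 500 bp and leaving out libraries. The comparison of density ratios between lines, the sparse windows, and the other gene-start windows and gap lengths, and dense stretches on lists of equal length, were added after seeing the data.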

Additional observations from a re-analysis of the deposited data

Results flagged for a closer look

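The 20q share of a list differed between lines beyond the difference between replicates by 0.16 on the log2 scale (exact one-sided permutation test, p = 0.00238), and lines with different shares also had lists of different forms. The 20q to 20p density ratio differed in the same way by 0.33 (p = 0.00476, same exact permutation test), and here H358 and H2009 differed within 1 form. The median rank on 20q minus that on 20p was above 0 in both H358 libraries (0.786 and 9.06) and both Ishikawa libraries (11.3 and 6.17), and below 0 in both H2009 libraries (-0.629 and -6.30). That difference between lines was not tested.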

How the results depend on the processing

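Of the comparisons, none changed direction under any alternative that was run. The difference between lines and replicates in 20q share lost its call in the higher-ranked 50% of each list (0.0568, exact permutation p = 0.138) and with a replicate block, where only 6 placements exist and p cannot go below 0.167 (0.16 for the share and 0.27 for the Jaccard index, both at exact permutation p = 0.167). The core share was 13.1% in the higher-ranked 50%, 20.9% without BICR31 and 0.187% when a peak had to cover 50% of its region, a rule that few narrow peaks can meet in wide merged regions. Regions on 20q numbered 565 in the higher-ranked 50%. The mean rank difference from the other chromosomes ran from 0.545 points with the left-out stretch put back to 5.80 in the higher-ranked 50%. At 5.80, at 3.43 with equal list lengths and at 4.06 ranked by width, all 5 lines were above 0. Each gave p = 0.0625 in the exact two-sided sign-flip permutation test, the smallest that 5 lines allow. Over 13 settings the mean log2 density ratio ran from 0.48 to 0.57, and the added comparison of that ratio between lines and replicates kept p between 0.00238 and 0.0381. The difference from 20p in line-specific share ran from -8.88 to -0.545 points, with p from 0.125 to 0.9375. Counts of specific regions were the least stable: H2009 had 4 to 36, H358 had 8 to 38, BICR31 had 126 to 405, HCC95 had 35 to 132 and Ishikawa had 12 to 64. Dense stretches of BICR31 numbered 7 with gaps up to 10 kb and 22 with gaps up to 15 kb, against at most 2 and 7 in other libraries, and 1 on lists of equal length. Gene starts with a peak in all 8 libraries numbered 25 within 1 kb and 29 within 5 kb. Read depth is unknown, so a missing peak limits nothing about the level of the mark.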
